A study of Mus musculus with 2 samples.

Results

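The cells described here are the 400 cells with the highest joint expression of Spp1, Mmp3, Mmp13, Col10a1, Cthrc1 and Comp among 7023 mouse cells taken at day 16 of reprogramming. They were chosen from measured values. The deposited value of each of the 6 genes was turned into a z value over all 7023 cells, the 6 z values were averaged to a score, and the 400 highest cells of both libraries together were taken among cells with fewer than 3 of the pluripotency genes Utf1, Tdgf1, Tdh, Nanog and Dppa4 detected. The other 6066 such cells are called other non-pluripotent cells, and the 557 cells with at least 3 of these genes were set aside as pluripotent cells. The selection took 230 cells of replicate 1 (7.80% of its 2949 non-pluripotent cells, exact 95% binomial interval 6.86 to 8.83%) and 170 cells of replicate 2 (4.83% of 3517, interval 4.15 to 5.60%), a mean of 6.32% ± 2.1 (SD, n = 2). The intervals cover counting error only.

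Both libraries hold unsorted cultures of mouse embryonic fibroblasts that carry STEMCCA, a single inducible cassette of the factors Oct4, Sox2, Klf4 and c-Myc, grown in mouse embryonic stem cell medium with serum, LIF and ascorbic acid. Age, sex and strain are not in the labels, and no culture without the cassette was analysed here. The study names a pair of independent STEMCCA mouse systems, but the labels do not assign the libraries to them, so a difference between the libraries and a difference between the systems cannot be told apart. Cells are not replicates, and each comparison below was therefore made between mean profiles of the 2 libraries.

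Most cells of such a culture do not reach pluripotency, and many keep or change a mesenchymal programme. Extracellular matrix is built from secreted collagens, glycoproteins and proteoglycans, is cut by secreted and membrane metalloproteinases and lysosomal cathepsins, and is sensed by integrins and other receptors. Spp1 encodes osteopontin, a secreted phosphoprotein of mineralised tissue and of healing wounds that binds integrins and CD44. Mmp13 (collagenase-3) cleaves fibrillar collagens and Mmp3 (stromelysin-1) cleaves other matrix proteins and activates other metalloproteinases. Col10a1 encodes the short collagen of hypertrophic cartilage, Comp a matrix protein of cartilage and tendon that binds collagens, and Cthrc1 a secreted protein of activated fibroblasts.

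The promoter sequences of Spp1, Mmp3, Mmp13 and Col10a1 are shown because the selection rests on the RNA of these genes. They were taken from RefSeq (GRCm38.p6), which gave 4 of the 6 genes here, and each line holds the 150 bases before the start site on the plus strand, read 5′ to 3′. Capitals mark letters searched for on both strands: TGANTCA for AP-1, TGTGGT or ACCACA for RUNX factors, TATAAA or TTTATA for the TATA box, and AGGAAG or CTTCCT for ETS factors.
Spp1 (chr5:104434961-104435110): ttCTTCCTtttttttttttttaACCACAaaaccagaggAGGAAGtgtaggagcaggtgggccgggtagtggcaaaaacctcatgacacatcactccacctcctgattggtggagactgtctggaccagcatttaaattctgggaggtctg
Mmp3 (chr9:7445672-7445821): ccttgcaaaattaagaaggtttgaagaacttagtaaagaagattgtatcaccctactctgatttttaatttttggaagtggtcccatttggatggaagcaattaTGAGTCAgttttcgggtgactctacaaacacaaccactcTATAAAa
Mmp13 (chr9:7272364-7272513): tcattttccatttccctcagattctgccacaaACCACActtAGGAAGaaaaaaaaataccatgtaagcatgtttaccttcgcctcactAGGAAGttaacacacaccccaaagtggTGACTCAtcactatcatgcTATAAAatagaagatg
Col10a1 (chr10:34389831-34389980): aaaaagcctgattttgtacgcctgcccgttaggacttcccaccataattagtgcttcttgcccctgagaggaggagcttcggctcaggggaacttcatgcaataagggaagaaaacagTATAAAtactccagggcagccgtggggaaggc

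Mmp3 and Mmp13 each held 1 AP-1 motif, at -46 to -40 in Mmp3 and at -35 to -29 in Mmp13, counted from the start site with -1 as the base before it. Over the 250 bases before the start, 6.75% of 32851 RefSeq promoters held an AP-1 motif, 14% a RUNX motif, 12.4% a TATA box and 29.5% an ETS motif. Over the 150 bases printed here the shares were 4.24%, 8.40%, 7.57% and 19.7%. Spp1 and Mmp13 held the RUNX letters and Mmp3, Mmp13 and Col10a1 a TATA box within the printed bases. RefSeq gave a second Spp1 start site, at chr5:104436192, which is not printed. The 250 bases before it held an ETS motif at -161 to -156 and no AP-1, RUNX or TATA letters. Mmp13 held AP-1, RUNX and TATA motifs together, as did 0.195% of all promoters over 250 bases. No other combination was counted, and the ETS motifs that Mmp13 also held were left out of it. The share therefore does not measure how unusual this promoter is. These matches describe letters only.

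In the GENCODE annotation of GRCm38, Spp1 (ENSMUSG00000029304.14) lies at chr5:104435118-104441050, Col10a1 (ENSMUSG00000039462.4) at chr10:34389981-34397085, Cthrc1 (ENSMUSG00000054196.7) at chr15:39076932-39087121 and Comp (ENSMUSG00000031849.9) at chr8:70373558-70382066, all on the plus strand. Mmp13 (ENSMUSG00000050578.10) at chr9:7272514-7283331 and Mmp3 (ENSMUSG00000043613.8) at chr9:7445822-7455975 belong to a cluster of metalloproteinase genes. Mmp12, the macrophage elastase, lies between them and had 0 UMIs (unique molecular identifiers, each counting 1 captured RNA molecule) in the selected cells of either library. Mmp10, beyond Mmp3, had 0 and 1 UMI in the selected cells. Mmp1b, between Mmp13 and Mmp3, and Mmp1a, directly beyond Mmp3, have no row in the expression table used here and were not measured. At the Spp1 locus, which holds genes of mineralised matrix, Dmp1 averaged 0.136 and 0.104 UMIs per 10000 UMIs in selected cells of replicates 1 and 2 and 0.00460 and 0.0124 in other non-pluripotent cells.

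Because the 6 genes chose the cells, their levels are given as a description without a test. The lowest score inside the selection was 0.833 and the highest outside 0.832, with a median of 1.75 inside and -0.239 outside. The 20 nearest cells on the inner side reached up to 0.897 and the 20 nearest on the outer side down to 0.777. A cutoff by rank gives neighbouring scores on its sides whatever the structure of the data, and these values do not say whether the cells form a cluster.

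**Figure D1:**
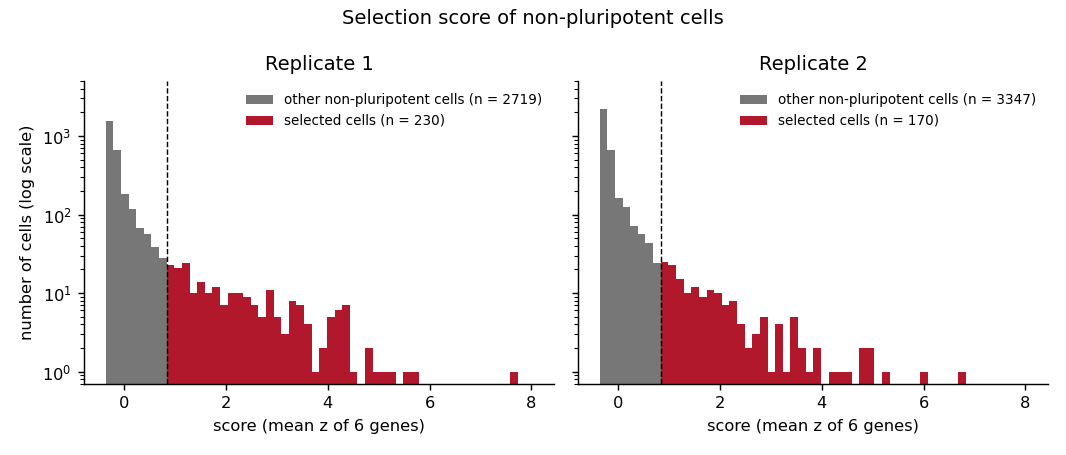
Number of non-pluripotent cells (vertical axis, log scale) by selection score (horizontal axis, mean z of the 6 genes) in each library, with selected cells in red, other non-pluripotent cells in grey and the cutoff as a dashed line. Selected cells extend to a score of 7.72.

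Spp1 averaged 88.6 UMIs per 10000 in the selected cells of replicate 1 and 85.1 in those of replicate 2, against 2.19 and 1.71 in other non-pluripotent cells. Pluripotent cells carried Spp1 too, at 5.44 and 7.41 per 10000. After each cell was thinned to 4000 UMIs, Spp1 was detected in 76.5% and 75.9% of selected cells and in 77.5% and 84.9% of pluripotent cells. Detection of Spp1 was thus common in both classes, while its mean was higher in selected cells.

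The 2 metalloproteinases were nearly absent outside the selection. Mmp13 averaged 5.73 and 5.14 per 10000 in selected cells and 0.0308 and 0.0347 in other non-pluripotent cells. Mmp3 averaged 4.11 and 5.61 against 0.0180 and 0.0161. Neither was found in most selected cells: after thinning, Mmp13 was detected in 34.8% and 35.3% of them and Mmp3 in 28.3% and 38.2%, with at most 1.25% of pluripotent cells as the background for both. The median depth was 13100.5 and 10876.5 UMIs in selected cells and 28353.5 and 26097 in pluripotent cells before thinning.

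Col10a1 was the gene that differed most between the libraries. It averaged 2.96 per 10000 in selected cells of replicate 1 and 1.19 in those of replicate 2, against 0.00566 and 0.00209 in other non-pluripotent cells. It was detected in 73 of 230 cells (31.7%) and in 23 of 170 cells (13.5%) without thinning, and in 23.9% and 7.65% after it, against 0.625% and 0.252% of pluripotent cells. With 2 libraries this difference was not tested. Cthrc1 averaged 1.54 and 1.51 in selected cells and 0.0640 and 0.0458 in others. Comp averaged 1.89 and 1.07 against 0.0429 and 0.0312.

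**Figure D2:**
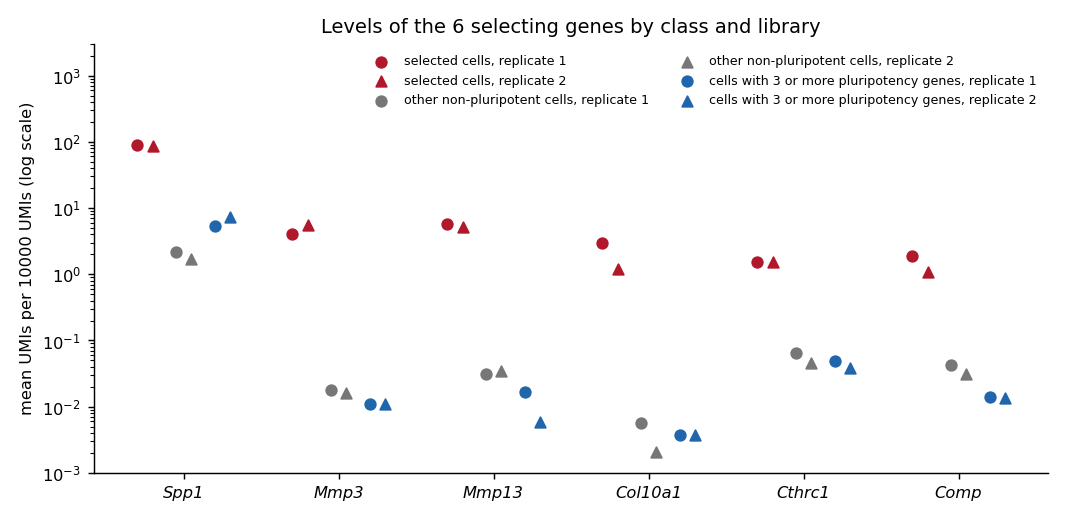
Mean UMIs per 10000 UMIs (vertical axis, log scale) of the 6 selecting genes in selected, other non-pluripotent and pluripotent cells, with circles for replicate 1 and triangles for replicate 2. Spp1 is the only one of the 6 with a mean above 1 in pluripotent cells, at 5.44 and 7.41.

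Few of the selected cells carried the whole set. A single gene of the 6 was detected in 18 cells, 2 genes in 120, 3 in 138, 4 in 82, 5 in 37 and all 6 in 5 cells. At least 3 were detected in 65.5% of selected cells and in 0.478% of other non-pluripotent cells. The gene with the highest z was Comp in 91 cells, Cthrc1 in 77, Mmp3 in 71, Mmp13 in 71, Col10a1 in 50 and Spp1 in 40, and 44 of the 50 cells led by Col10a1 were of replicate 1.

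The genes overlapped unevenly within cells. Of the selected cells with Col10a1, 97.3% of replicate 1 and 87.0% of replicate 2 also had Spp1, 63.0% and 78.3% had Mmp13, and 35.6% and 34.8% had Comp. Of those with Cthrc1, 59.1% and 54.0% had Comp and 33.9% and 33.3% had Mmp13. These shares follow from the selection in part, since a cell with 1 of the genes needed others to reach the cutoff, and they were not tested.

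A gene was left out in turn and the 400 cells were chosen again by the other 5, which shared 337 to 388 cells with the full selection. The left-out gene took no part in that choice of cells. It had, however, been put among the selecting genes with earlier results of these data known. Spp1 was then 21.3 and 31.8 times as high in chosen as in remaining non-pluripotent cells of replicates 1 and 2. The ratio was 142 and 80.6 for Mmp3, 26.0 and 27.7 for Mmp13, 63.0 and 410 for Col10a1, 8.47 and 9.59 for Cthrc1, and 13.9 and 10.0 for Comp. Each gene was thus higher in both libraries where the other 5 were high. Because the selecting genes were chosen with earlier results known, high ratios could be foreseen. The ratios describe the chosen set and do not test whether its genes go together. The ratio of 410 rests on 15 UMIs in the remaining cells of replicate 2.

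Selected cells were shallower than other non-pluripotent cells, with a median of 13100.5 against 15378 UMIs in replicate 1 and 10876.5 against 13807 in replicate 2, and had 4.74% against 4.0% and 4.20% against 4.08% mitochondrial UMIs. The libraries held 54145377 and 64654306 UMIs. They shared 12 cell barcodes, which marked 2 selected cells, and without cells of shared barcodes 1806 genes were higher and 1459 lower in the comparison below, against 1799 and 1449 with them. Deep cells were rare in the selection, with 1 and 0 cells above the 99th percentile of their library. No source used here states how doublets were handled, and no doublet caller was run.

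The question of the main comparison was what else these cells expressed. Of 7080 genes tested, with the 6 selecting and 5 pluripotency genes left out, 1799 (25.4%) were higher and 1449 (20.5%) lower in selected than in other non-pluripotent cells at an adjusted p below 0.05 with the same sign in both libraries, and 190 (2.68%) and 91 (1.29%) were also at least 2-fold higher or lower in both libraries. The differences are on the scale log2(mean UMIs per 10000 + 0.1), which understates those of low genes. The test was limma with library as a term over 4 profiles. The 1 residual degree of freedom per gene was pooled over genes to 39.5 in all, so that standard errors were nearly alike (5th to 95th percentile 0.110 to 0.116). An SE printed below is therefore not the spread of that gene alone between the libraries. Without the filter on low genes the pooled degrees of freedom fell to 2.18 and 0 genes passed, with 5110 at an unadjusted p below 0.05. Centred on the median gene, 1326 were higher and 2042 lower. The filter used the mean over both classes together, so that 21 of the 190 and 42 of the 91 genes averaged under 0.1 in the class where they were low and were tested only through the class where they were high. The same held for 59 of the 1799 higher and 315 of the 1449 lower genes. Such genes had to differ, and their values below are a description. For the lists, whose tested members passed the same filter, the counts are to be read beside 25.4% higher and 20.5% lower over all genes.

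**Figure D3:**
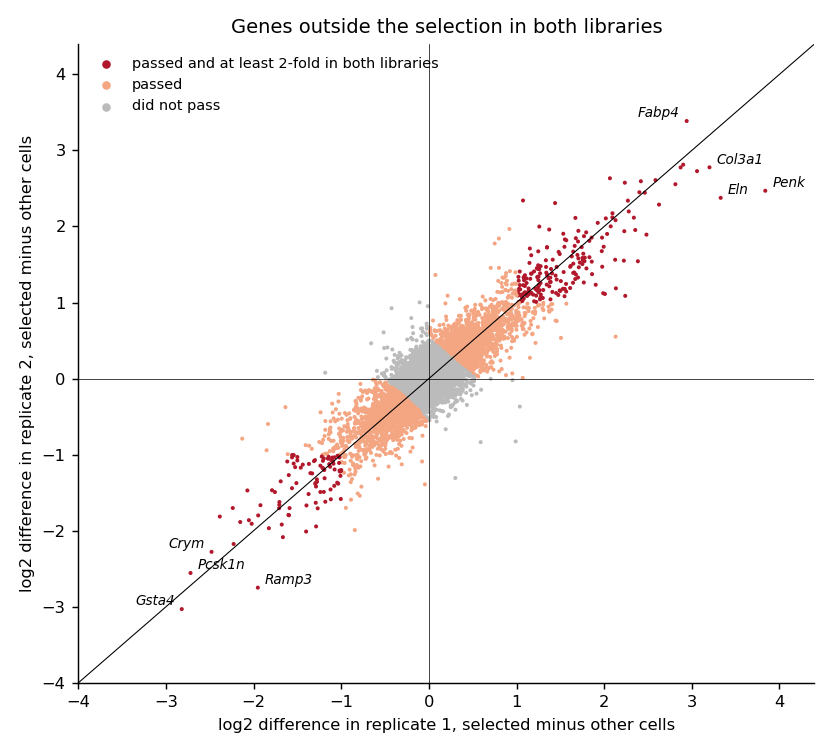
Log2 difference between selected and other non-pluripotent cells in replicate 1 (horizontal axis) and replicate 2 (vertical axis), 1 point per tested gene, coloured by whether it passed the test, with the line of equal values. The 190 and 91 genes at least 2-fold higher or lower in both libraries lie at the upper right and lower left, and Penk lies to the right of the line with 3.84 in replicate 1 and 2.47 in replicate 2.

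The genes with the largest increase were Fabp4, Penk, Col3a1, Col12a1, Lsp1, Eln, Igfbp4, Smoc2, Ltbp2, Nbl1, Mme and Angptl2. Many encode secreted or matrix proteins. Fabp4, a fatty acid binding protein of adipocytes, averaged 1.37 and 2.28 per 10000 in selected cells of replicates 1 and 2 and 0.0907 and 0.128 in others, a log2 difference of 3.16 ± 0.12 (SE). Col3a1, the type III fibrillar collagen, averaged 24.1 and 14.1 against 2.53 and 1.97, a difference of 2.99 ± 0.11. Both genes were higher in both libraries by more than the libraries differed from each other. Penk, the precursor of enkephalin peptides, averaged 3.84 and 0.691 against 0.176 and 0.0428. Its level thus differed between the libraries within both classes. Its log2 difference between classes was 3.84 in replicate 1 and 2.47 in replicate 2, with a limma estimate of 3.15 ± 0.15. That error is pooled over genes and is smaller than the gap between the libraries.

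Eln, the elastin gene, averaged 3.39 and 1.23 against 0.247 and 0.156, a log2 difference of 2.85 ± 0.13. Its differences of 3.33 in replicate 1 and 2.38 in replicate 2 lay further apart than this pooled error. Col12a1, a collagen that binds along type I fibrils, averaged 3.65 and 3.08 against 0.350 and 0.380. Igfbp4, a secreted binding protein of insulin-like growth factors, averaged 4.97 and 4.37 against 0.592 and 0.552. Ltbp2, a microfibril protein of the latent TGF-beta binding family, differed by 2.60, Smoc2 (a secreted SPARC-related protein) by 2.68, the BMP antagonist Nbl1 by 2.51, the membrane peptidase Mme by 2.46, Angptl2 by 2.45 and the leukocyte-associated actin-binding gene Lsp1 by 2.86. Lsp1 and Mme were tested only through the selected cells. Adjusted p was at most 4.97e-20 for the others of the 12.

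The genes with the largest decrease were Gsta4, Pcsk1n, Crym, Ramp3, Acsbg1, Upp1, L1td1, Bex1, Cd59a, Bex4, Limch1 and 1700019D03Rik. Gsta4, a glutathione transferase for lipid aldehydes, averaged 0.386 and 0.268 per 10000 in selected cells against 3.33 and 2.91 in others, a log2 difference of -2.93 ± 0.11 (SE). Crym, a thyroid hormone binding protein, averaged 0.662 and 0.733 against 4.15 and 3.94. Pcsk1n, an inhibitor of a prohormone convertase, averaged 0.0824 and 0.0928 against 1.10 and 1.03. Each was lower in both libraries. L1td1, an RNA-binding protein also found in pluripotent cells, differed by -2.02, Ramp3 (a receptor partner for adrenomedullin) by -2.35, the fatty acyl ligase Acsbg1 by -2.20, Upp1 (uridine phosphorylase) by -2.1 and the complement inhibitor Cd59a by -1.97. Pcsk1n, Acsbg1, Bex1, Cd59a, Bex4 and 1700019D03Rik were tested only through the other cells. Adjusted p was at most 1.02e-17 among the rest, that of Limch1.

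Structural matrix genes were higher as a group. Of 15 tested collagen genes, 14 were higher and 1 was lower, with a median log2 difference of 1.55 beside 0.03 over all 7080 genes, and 11 were at least 2-fold higher in both libraries. Col1a1, the main collagen of bone and skin, averaged 27.2 and 15.9 per 10000 in selected cells and 5.56 and 3.05 in others. Col5a2, which helps start type I fibrils, averaged 5.50 and 3.64 against 1.05 and 0.715. The exception was the basement membrane collagen Col15a1, at 0.187 and 0.171 against 0.525 and 0.300.

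Among matrix glycoproteins and proteoglycans, 25 of 31 tested genes were higher and 1 lower, with a median of 1.23 and 16 at least 2-fold higher. Aspn (asporin), a small leucine-rich proteoglycan of tendon and cartilage, averaged 3.16 and 3.52 against 0.591 and 0.506. Thbs2, a matrix thrombospondin, averaged 4.0 and 2.74 against 0.701 and 0.633. Thbs3 was lower at 0.154 and 0.144 against 0.454 and 0.445, so that related thrombospondins differed in direction. Collagen-processing enzymes were higher in 18 of 19 tested cases and lower in 0, with a median of 0.80. Lox, a lysyl oxidase that crosslinks collagen and elastin, averaged 6.30 and 4.76 against 1.48 and 1.03, and the related Loxl1 and Loxl3 differed by 1.68 and 1.46.

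The proteases outside the selection were higher too. All 11 tested matrix proteases were higher, with a median of 0.98, and Mmp2, Mmp14, Ctsk, Ctsb and Ctsl were at least 2-fold higher in both libraries. Mmp2, the type IV collagenase, averaged 3.57 and 3.26 per 10000 against 0.931 and 0.858. Ctsl, a lysosomal cysteine protease, averaged 4.27 and 7.11 against 1.73 and 1.70. Ctsk, the collagen-degrading cathepsin of osteoclasts and fibroblasts, averaged 0.542 and 0.438 against 0.170 and 0.112. Of 28 listed proteases in the table the others were below the level for testing, among them Mmp9, Mmp10 and Mmp12.

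Inhibitors rose beside the proteases, with 7 of 8 higher and 0 lower. Cst3 (cystatin C), an inhibitor of cathepsins, averaged 15.2 and 13.6 against 4.59 and 3.46. Timp2, which inhibits metalloproteinases, averaged 6.93 and 4.99 against 1.98 and 1.63. Serpine2, a secreted inhibitor of serine proteases, differed by 0.88. Receptors for osteopontin and other matrix were higher in 11 of 12 tested cases and lower in 0. Mrc2, a receptor that takes up collagen fragments, differed by 1.54 and the collagen integrin Itga11 by 1.45. Cd44, a receptor of osteopontin and hyaluronan, averaged 1.29 and 1.17 against 0.887 and 0.993, and the osteopontin-binding Itgav 1.04 and 0.962 against 0.495 and 0.463.

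**Figure D4:**
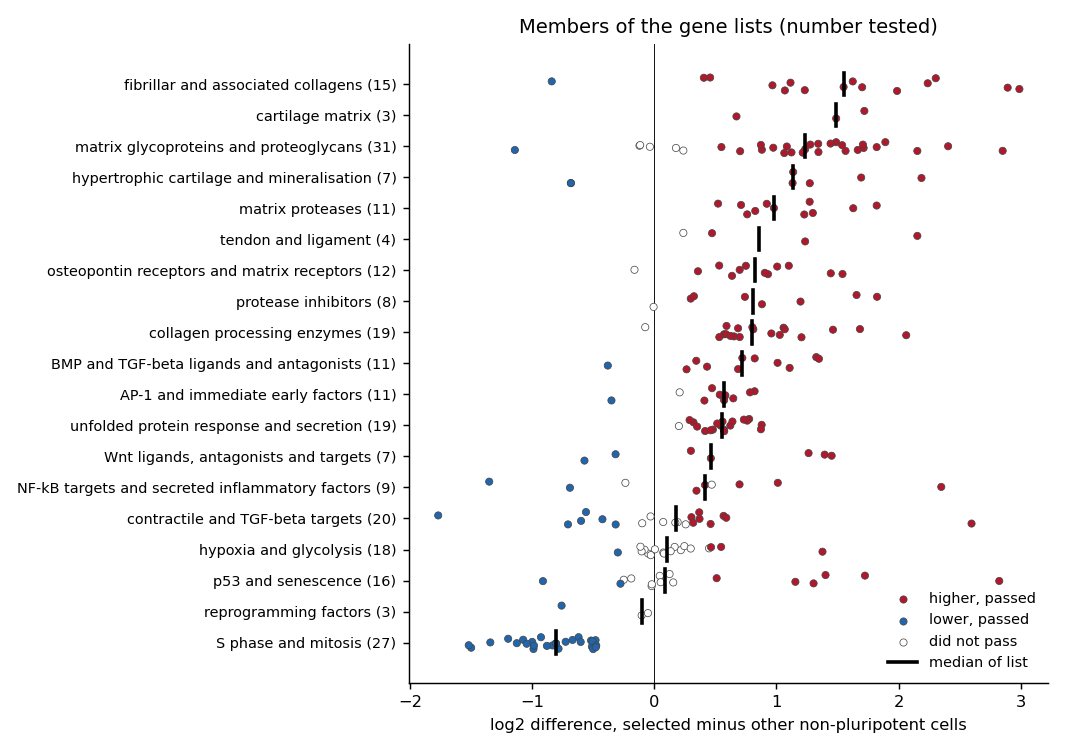
Log2 difference between selected and other non-pluripotent cells (horizontal axis) for each tested member of 19 gene lists, ordered by the median of the list (black bar), with the number tested in brackets and the fill showing whether a gene passed the test. Collagens lie highest with a median of 1.55 and genes of S phase and mitosis lowest with -0.81.

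The cartilage part of the selecting genes was only partly shared by other genes of that tissue. Of 7 tested genes of hypertrophic cartilage and mineralisation, 5 were higher and 2 lower. Mgp (matrix Gla protein), an inhibitor of calcification, averaged 94.0 and 75.5 per 10000 against 16.7 and 20.3. Mef2c, a transcription factor of chondrocyte hypertrophy, averaged 0.821 and 1.03 against 0.211 and 0.22, and Runx2, a transcription factor of bone and hypertrophic cartilage, 0.419 and 0.285 against 0.101 and 0.107. Pth1r, the receptor of parathyroid hormone-related protein, differed by 1.27 and the pyrophosphate transporter Ank by 1.14. The genes of osteoclast control Tnfsf11 and Tnfrsf11b were the lower pair.

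Other defining genes of cartilage and bone were uneven. Col2a1, the fibrillar collagen of cartilage, averaged 0.574 and 0.746 against 0.133 and 0.126, a log2 difference of 1.72 ± 0.11 (SE), and Col11a1, which forms fibrils with it, 1.98 and 1.08 against 0.554 and 0.378, a difference of 1.49. Sox9, the main transcription factor of chondrocytes, had 16 and 14 UMIs in all selected cells, a mean of 0.0518 and 0.0519 against 0.0628 and 0.0567. Acan (aggrecan) had 4 and 0 UMIs, Sp7, an osteoblast transcription factor, 0 and 1, and Alpl (alkaline phosphatase) 3 and 3. Col9a3, Matn1 and Matn3 had 0 UMIs in the selected cells of both libraries. Sox9, Acan, Sp7, Alpl, Col9a3, Matn1 and Matn3 were below the level for testing, and Ibsp has no row in the table used here.

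Marker lists were read in the same way. All 14 fibroblast markers were detected, and their summed level was 145 and 102 per 10000 in selected cells against 48.6 and 37.1 in other non-pluripotent and 5.08 and 5.13 in pluripotent cells. Of 8 chondrocyte markers in the table, 3 and 4 were at 0 in the selected cells, and their sum was 0.696 and 0.898 against 0.211 and 0.192, most of it from Col2a1. The sum of 6 osteoblast markers was 0.688 and 0.453 against 0.204 and 0.169. The 10 macrophage markers, which bear on Spp1 as a macrophage product, summed to 0.0780 and 0.147 against 0.405 and 0.810, with Csf1r and Adgre1 at 0 in replicate 1 and Adgre1 and C1qa at 0 in replicate 2. The 3 osteoclast markers summed to 0.578 and 0.564 against 0.184 and 0.129, mostly from Ctsk. Of 5 adipocyte markers, Fabp4 held most of a sum of 1.76 and 2.51, while Plin1 was at 0 in both libraries and Pparg had 3 and 2 UMIs. The 4 hypertrophic chondrocyte markers in the table summed to 1.64 and 1.73 against 0.502 and 0.454, and the 7 smooth muscle or myofibroblast markers to 20 and 17.3 against 42.4 and 25.7. The fibroblast list had the highest sum, which its abundant genes set. The sums of the chondrocyte, hypertrophic, osteoblast, osteoclast and adipocyte lists were higher than in other cells too, and those of the macrophage and smooth muscle lists were lower. The part of other cell types in the results was not tested.

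Selected cells had fewer transcripts of proliferation genes than other non-pluripotent cells. All 27 tested genes of S phase and mitosis were lower, with a median of -0.81, and 0 were higher. Hmgb2 averaged 0.460 and 0.519 against 1.71 and 1.48, Cdc20, an activator of the anaphase-promoting complex, 0.0987 and 0.0869 against 0.487 and 0.407, and Ccnb2, a mitotic cyclin, 0.140 and 0.0808 against 0.452 and 0.408. Cdc20, and any other of the 27 that averaged under 0.1 in selected cells, was tested only through the other cells. Values of such genes are a description. Selected cells were also shallower, and with every cell thinned to 4000 UMIs 25 of the 27 were lower, with a median of -0.92. Against the Mylk, Thbs1 and Itga11 cells and the Mmp11, Dcn and Sfrp4 cells described below, 1 of 23 and 0 of 21 such genes were lower and 0 were higher by limma, with medians of -0.11 and 0.28. Over all genes 5.52% and 1.18% were lower in these comparisons and 4.28% and 1.11% higher. The list counts were near these shares, and with so few calls of any kind they do not show equal levels. Among 16 tested genes of p53 and senescence, 6 were higher, 2 lower and 8 did not pass, beside 25.4% and 20.5% of all genes, and the list's median of 0.09 changed sign when centred on the median gene. Cdkn2b, a cyclin-dependent kinase inhibitor, averaged 1.46 and 1.02 against 0.411 and 0.388. Cdkn1a, the kinase inhibitor p21 induced by p53, averaged 4.14 and 3.21 against 3.33 and 3.34 and did not pass. Hmga2, an architectural chromatin protein, averaged 1.22 and 0.719 against 0.234 and 0.195.

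AP-1 and other immediate early factors were higher by small amounts, with 9 of 11 higher, 1 lower and a median of 0.57, and 0 reached 2-fold in both libraries. Whether they act on the Mmp3 and Mmp13 promoters was not tested. Fosl2 averaged 0.622 and 0.491 against 0.278 and 0.262, Jun 1.26 and 1.19 against 0.605 and 0.740, and Fosb 0.160 and 0.279 against 0.0611 and 0.15. Without the library term 4 of the 11 were higher. Against the Mylk, Thbs1 and Itga11 cells 1 of 12 such genes was higher and 0 lower. Against the Mmp11, Dcn and Sfrp4 cells 0 of 11 were higher and 0 lower. The cells were detached with trypsin before capture, and its part in these levels was not tested. Among 9 tested NF-kB targets and secreted inflammatory factors, 5 were higher and 2 lower (3 and 2 without the library term), beside 25.4% and 20.5% of all genes, and the lower count was near that background. Cxcl12, a chemokine of stromal cells, averaged 3.02 and 2.76 against 0.645 and 0.36, and Ccl8 averaged 0.217 and 0.143 against 0.589 and 0.629.

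Signalling genes that passed were mostly higher. Of 11 tested BMP and TGF-beta ligands, antagonists and targets, 10 were higher and 1 lower, with 6 and 0 without the library term. Tgfb1 averaged 0.50 and 0.411 against 0.113 and 0.129, Tgfb3 0.705 and 0.617 against 0.238 and 0.164, Tgfb2 0.504 and 0.440 against 0.186 and 0.182, and the activin subunit Inhba 0.658 and 0.237 against 0.176 and 0.0995. Of 7 tested Wnt genes, 5 were higher and 2 lower, with 3 and 2 at a pseudocount of 1 or centred and 1 and 0 without the library term. Among them were Dkk3 at 1.03 and 0.851 against 0.260 and 0.297 and the secreted antagonist Sfrp4 at 0.219 and 0.707 against 0.0419 and 0.162. Genes of the unfolded protein response and secretion were higher in 18 of 19 cases and lower in 0, each by less than 2-fold in at least 1 library, with a median of 0.56. The endoplasmic reticulum chaperone Calr averaged 6.53 and 6.15 against 3.59 and 3.22, and Hspa5 2.64 and 2.28 against 1.55 and 1.24.

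The remaining lists were mixed. Of 20 tested contractile genes and TGF-beta targets, 8 were higher, 6 lower and 6 did not pass, beside 25.4% and 20.5% of all genes. These counts rested on the setting, with 14 higher and 2 lower for 800 cells, 3 and 6 for 200 cells, and 2 and 1 without the library term. Actg2, a smooth muscle actin, averaged 2.80 and 2.64 against 12.1 and 7.49, and Acta2, another smooth muscle actin, 11 and 8.95 against 19.4 and 11.7. Of 4 tested tendon genes 3 were higher, with Tnc, a matrix glycoprotein, at 2.21 and 1.38 against 0.835 and 0.560 and Fmod at 1.97 and 2.06 against 2.09 and 1.37, which did not pass. Of 18 hypoxia and glycolysis genes 14 did not pass, 3 were higher and 1 lower, beside 25.4% and 20.5% of all genes, with the secreted peptide Adm at 1.05 and 1.48 against 0.377 and 0.467. Of the reprogramming factors, Pou5f1 averaged 0.0541 and 0.164 against 0.0860 and 0.153 and Klf4 0.284 and 0.122 against 0.211 and 0.195, and neither passed. Myc averaged 0.0291 and 0.0536 against 0.157 and 0.121. It was tested only through the other cells, so that its values are a description. Sox2, with 4 and 4 UMIs in the selected cells, was not tested. Cassette and native transcripts of these factors cannot be told apart in the table.

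Selected cells were then set against a mesenchymal population of the same cultures, the 400 non-pluripotent cells with the highest mean z of Mylk, Thbs1 and Itga11. The selections shared 67 cells, which were left out of both. Of 7411 genes tested, 317 (4.28%) were higher and 409 (5.52%) lower in Spp1, Mmp13 and Col10a1 cells, and 78 (1.05%) and 123 (1.66%) by at least 2-fold in both libraries. The differences rested on cells chosen by measured genes on both sides, and Mylk is itself a contractile gene. Contractile genes were the most uneven list, with 15 of 19 lower, 1 higher and a median of -1.35 beside 0.00 over all genes. Acta2 averaged 7.29 and 6.16 per 10000 against 42.9 and 33.1, Actg2 2.00 and 1.92 against 23.5 and 14.2, and Myl9 1.23 and 0.869 against 8.27 and 5.34.

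Matrix genes did not differ in the same way in this comparison. Of 17 tested collagens 2 were higher (Col3a1 and Col18a1), 7 were lower and 8 did not pass. Col1a1 averaged 23.4 and 13.1 against 25.8 and 23.8 and did not pass (adjusted p = 0.154), and the basement membrane collagen Col4a1 averaged 2.17 and 1.69 against 6.09 and 4.46. Of 32 matrix glycoproteins and proteoglycans 3 were higher and 7 lower, and of 19 collagen-processing enzymes 1 and 1. Of 12 matrix receptors 0 were higher and 4 lower. Of 21 genes of the unfolded protein response and secretion 0 were higher and 2 lower, and of 13 BMP and TGF-beta genes 1 and 3. In this comparison 28 of the 78 and 38 of the 123 genes at 2-fold, among them Col18a1, Enpp1, Sprr2k, Ankrd1 and Lmod1, were tested only through the class where they were high. Of 17 proteases, 5 were higher and 4 lower: Mmp2 averaged 3.65 and 3.35 against 1.61 and 1.27, whereas Adamts5, an aggrecan-cleaving protease, averaged 0.801 and 0.458 against 1.77 and 1.88. Of 8 tested genes of the hypertrophic list 4 were higher and 1 lower, beside 4.28% and 5.52% of all genes. Mgp, Mef2c, Enpp1 and Ank were at least 2-fold higher and Tnfrsf11b at least 2-fold lower. The largest increases included Mecom, Nbl1, Mme, Penk and Gadd45a, with Mecom, a zinc finger transcription factor, at 1.57 and 1.11 against 0.193 and 0.112. The largest decreases were Sprr2k, Ankrd1, Actg2, Col15a1, Lmod1 and Ncam1, with Ankrd1, a target of YAP in stretched cells, at 0.0753 and 0.0407 against 1.27 and 1.65.

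A second population was the 400 non-pluripotent cells with the highest mean z of Mmp11, Dcn and Sfrp4. It shared 45 cells with the selection, which were left out of both. Of 7382 genes tested, 82 (1.11%) were higher and 87 (1.18%) lower, and 54 (0.732%) and 71 (0.962%) by at least 2-fold in both libraries. Pooling over genes gave 4.63 degrees of freedom here and 8.03 in the comparison before. The lower counts therefore do not show that this population was closer. They moved with the settings, from 53 to 278 higher and from 31 to 246 lower genes. Of 15 tested collagens 6 were higher and 1 lower: Col1a1 averaged 27.8 and 17.0 per 10000 against 11.1 and 6.66, Col12a1 3.83 and 3.49 against 0.734 and 1.04, and Col15a1 0.164 and 0.158 against 0.946 and 0.565. Among 15 proteases 0 were higher and 1, Adamts2, was lower. Mmp2 averaged 3.40 and 2.95 against 3.08 and 2.52, slightly higher within each library, and did not pass. Of 32 matrix glycoproteins and proteoglycans 2 were higher and 1 lower, and of 13 matrix receptors 1 and 0. Of 21 genes of the unfolded protein response and secretion, and of 13 BMP and TGF-beta genes, 0 were higher and 0 lower. With so few calls these counts do not show equal levels.

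The largest increases over these cells were Kcnj15, Fabp4, Mecom, Thbs4, Lsp1 and Col2a1. Kcnj15, a potassium channel, averaged 0.80 and 0.640 against 0.00895 and 0.0150, and Thbs4, a thrombospondin of tendon and cartilage, 0.588 and 0.719 against 0.0333 and 0.0484. These genes and Col2a1 averaged under 0.1 in the compared cells and were tested only through the selected cells, so that their values are a description. So were 22 of the 54 genes at least 2-fold higher and, through the compared cells, 27 of the 71 lower, Ctla2a and Scara5 among them. The largest decreases were Chchd10, Ptn, Cryab, Ccl8, Ctla2a and Scara5. Ptn, the secreted growth factor pleiotrophin, averaged 0.607 and 0.537 against 4.63 and 6.50, and Scara5, a ferritin receptor, 0.0265 and 0.00616 against 0.522 and 0.415. Mecom was at least 2-fold higher in both comparisons, which share the selected cells, and its log2 difference was 2.52 ± 0.14 (SE) over the first population and 2.79 ± 0.14 over the second.

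Within the selection, cells with Col10a1 were compared with cells without it. Col10a1 was detected after thinning in 55 cells of replicate 1 and 13 of replicate 2, and not in 175 and 157. Of 7360 genes tested with limma, 0 (0%) were higher and 0 (0%) lower, with 313 at an unadjusted p below 0.05, and the standard errors had a median of 0.31 on the log2 scale. With a pseudocount of 1 in place of 0.1, 33 were higher and 28 lower. Genes of the hypertrophic list did not pass. Runx2 averaged 0.374 and 0.143 per 10000 in cells with Col10a1 and 0.433 and 0.297 in cells without, and Pth1r 0.387 and 0.143 against 0.393 and 0.428. Mgp averaged 132 and 144 against 81.9 and 69.8, a log2 difference of 0.87 ± 0.30 (SE), and Ank 1.04 and 1.29 against 0.546 and 0.491, a difference of 1.03 ± 0.30. Neither passed the test.

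Genes outside the selection were followed along the score in 8 successive groups of 100 cells, 4 inside and 4 below the cutoff, as a description. In replicate 1 Col3a1 averaged 37.2 per 10000 in the highest group, 13.4 in the last group inside, 11.9 in the first group below the cutoff and 7.47 in the lowest group. In replicate 2 the same groups averaged 23.4, 11.5, 6.66 and 6.03. The lowest group thus still lay above the mean of all other non-pluripotent cells, which was 2.53 and 1.97. Mgp averaged 131 and 132 in the highest group of replicates 1 and 2 and 25.2 and 51.5 in the lowest, and Mmp2 5.00 and 5.27 in the highest and 1.88 and 1.91 in the lowest. The course was not the same for every gene. Timp1, an inhibitor of metalloproteinases, averaged 8.77 and 8.25 in the highest group, 15.5 and 11.7 in the first group below the cutoff and 9.51 and 8.32 in the lowest. Gsta4 averaged 0.346 and 0.206 in the highest group and 1.57 and 0.806 in the lowest, and Acta2 5.58 and 4.35 in the highest and 21.0 and 11.4 in the lowest.

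**Figure D5:**
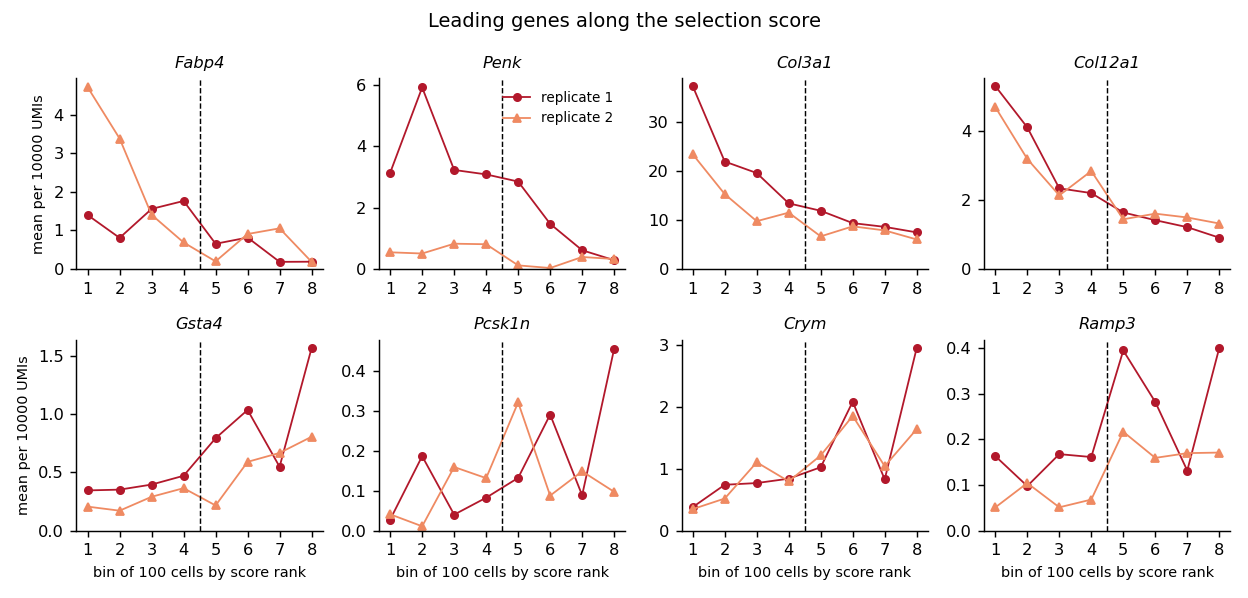
Mean UMIs per 10000 UMIs (vertical axes, linear, from 0) of the 4 genes with the largest increase and the 4 with the largest decrease in 8 groups of 100 cells by rank of the score (horizontal axis, 1 highest), by library, with the cutoff as a dashed line. Col3a1 goes from 37.2 in the highest to 7.47 in the lowest group of replicate 1 and from 23.4 to 6.03 in replicate 2, while the mean of Penk over the selected cells was 3.84 in replicate 1 and 0.691 in replicate 2.

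Across single non-pluripotent cells the non-selecting genes whose value followed the score most closely were Col3a1, with a mean Pearson's r of 0.54 over 2949 and 3517 cells, Col12a1 with 0.47, Ltbp2 with 0.46, Nbl1 and Igfbp4 with 0.44, Angptl2 and Col5a2 with 0.43, and Htra3, Col1a1 and Lsp1 with 0.42. Col3a1 had the highest value in both libraries, at 0.58 and 0.49. The cells of a library share its depth and normalization, and these values are a description. At the other end stood ribosomal protein genes and the nucleolar gene Npm1, with Rps18 and Rps16 at -0.32 and Npm1, Rpsa and Rpl4 at -0.31.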

How the data were processed

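Unsorted day 16 cultures were captured with a droplet 3′ chemistry with molecular identifiers. Per the labels and the study's methods, reads were processed with Cell Ranger 2.1.1 on mm10 and with Seurat. The authors deposited natural log values, ln(1 + UMIs per cell total × 10000), for 17408 genes in 7023 cells with 1508 to 5987 genes and at most 8.99% mitochondrial UMIs. UMI counts were recovered from these, and 100% of values were whole within 0.01. No source used here states how doublets were handled.

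The labels give both libraries the same cell type and day, so they form 1 group of 2, numbered in accession order, and the barcode suffix in the labels tied each column to its library. Whether these are separate animals is not stated, so p-values do not reach beyond these libraries. With library as a term, they rest on how far the class differences disagree between the 2 libraries. That disagreement was pooled over genes, and they do not measure the spread of a single gene. The members, gene lists and marker lists were chosen with earlier results of these data known. Mean profiles per class and library were compared as log2(mean per 10000 + 0.1) leaving out genes that averaged under 0.1 over the compared cells together, with limma 3.58.1 (R 4.3.3), library as a term and Benjamini-Hochberg adjustment over all tested genes. Classes of 1 library are paired because they come from the same capture. The depth of the recovered UMIs limits the precision for low genes, and intervals cover counting error only. The text names the 12 largest changes in each direction, up to 4 genes of each list with the largest change and defining genes, and the 6 largest against each other population. Some genes that met this rule are not reported here. Other named list members, and the ribosomal genes, were chosen after their values were seen. The fit was run on simulated data in which the true class difference was the same in both libraries. That run does not test the calls made here, where the libraries could differ. Alternatives changed the pseudocount, filter, number of cells, scaling, centring and library term and left out each library.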

Additional observations from a re-analysis of the deposited data

How the results depend on the processing

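The comparison with other non-pluripotent cells gave 1799 higher and 1449 lower genes. It gave 0 and 0 with no filter on low values, when the errors were pooled less over genes, 572 and 700 with a mean of at least 0.5, where fewer genes were tested, and 957 and 733 with cells thinned to 4000 UMIs. The classes of a library are paired, and with no replicate block (no library term) the counts were 985 and 731. The 190 higher and 91 lower genes at 2-fold became 301 and 222 with a pseudocount of 0.01, 32 and 7 with 1, 0 and 0 with no filter, and 68 and 40 with a mean of at least 0.5. The 91 became 47 with 800 cells, 59 where no pluripotency gene was detected, and 144 to 145 with 1 library left out, without a test. With 1 library left out the 190 became 238 to 256.

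Against Mylk, Thbs1 and Itga11 cells, a mean of at least 0.5 gave 150 higher and 225 lower genes, 34 and 68 at 2-fold. A pseudocount of 1 gave 9 and 23 at 2-fold, and leaving out a library 129 to 143 and 164 to 210. Penk lost its call there with a pseudocount of 1, with a mean of at least 0.5 and with 800 cells. Against Mmp11, Dcn and Sfrp4 cells, the counts were 162 higher and 156 lower with a pseudocount of 1, 53 and 31 with a mean of at least 0.5, 221 and 227 with 200 cells, 278 and 246 with 800 cells, and 221 and 215 with shared cells kept. At 2-fold they were 9 and 8 with a pseudocount of 1 and 23 and 21 with a mean of at least 0.5, 91 higher with 200 cells, 41 lower with 800 cells, and 107 to 144 and 122 to 132 with a library left out. For Col10a1, a pseudocount of 1 gave 33 higher and 28 lower genes, and a split without thinning and one at the median value gave 3 lower genes each. Its comparison without each replicate was not run. The mean share of selected cells was 8.98% where no pluripotency gene was detected and 4.83 to 7.80% by library. Slc2a1, which did not pass, changed sign to -0.11 without replicate 2, against 1.00 without replicate 1. The cause of these changes was not tested unless stated. With 2 libraries, no gene's own spread could be estimated well, and low genes such as Sox9 and Acan were limited by depth.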
